A study of Mus musculus with 18 samples.

Results

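RNA levels of 10 genes of mineralized matrix and late osteoblasts were compared across 3 tissues of the embryonic mouse mandible and 2 genotypes. The genes were chosen by name as rows of the deposited count files, 10 of the 38243 genes counted in each of 18 libraries. They are the SIBLING genes *Spp1* (osteopontin), *Ibsp* (bone sialoprotein), *Dmp1* and *Mepe*, the osteocalcin genes *Bglap* and *Bglap2*, the calcification inhibitor *Mgp*, the collagen-binding *Sparc* (osteonectin), and *Phex* and *Ifitm5*, which encode membrane proteins of bone-forming cells. Mandibular bone, Meckel's cartilage (MC) and mandibular condylar cartilage were laser-captured from female C57BL/6 embryos at embryonic day (E) 16.5, 3 *Fgfr2*+/S252W embryos of the Apert syndrome model and 3 *Fgfr2*+/+ embryos (WT), and RNA was sequenced after amplification. Each of the 6 groups of genotype and tissue had 3 libraries. That libraries of 1 genotype with the same replicate number came from 1 embryo was inferred from the labels. The S252W embryos are heterozygous for a knock-in allele for which the labels name no limit to a cell type, so that other cells in the captured tissue carry it as well as bone and cartilage cells.

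SIBLING proteins are small secreted phosphoproteins, rich in acidic residues and with an RGD sequence that integrins bind, and their genes lie next to each other. Osteocalcin and matrix Gla protein, the product of *Mgp*, bind calcium through glutamate residues that are carboxylated in a vitamin K-dependent step; osteocalcin marks the mature osteoblast, whereas matrix Gla protein keeps cartilage and vessels from calcifying. Bone sialoprotein is abundant where mineral is first laid down, DMP1, MEPE and the endopeptidase PHEX belong to the late osteoblast and osteocyte, and osteopontin is made by osteoblasts, osteoclasts and hypertrophic chondrocytes.

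The SIBLING genes stood in a cluster on the plus strand of chromosome 5 (mm10). In order along the chromosome, *Dmp1* lay at chr5:104202617-104214102, *Ibsp* at chr5:104299171-104311469, *Mepe* at chr5:104325329-104338611 and *Spp1* at chr5:104435118-104441050. With the tooth gene *Dspp* the cluster spanned 270.3 kb. *Bglap* (chr3:88383501-88384433) and *Bglap2* (chr3:88377736-88378699) lay on the minus strand of chromosome 3, with *Bglap3* within 15.8 kb. Because fragments can be shared between these copies, the coding sequences are shown with the bases at which they differ in capitals, read from the GRCm38 genome and its GENCODE annotation, 5′ to 3′ on the minus strand.
Bglap: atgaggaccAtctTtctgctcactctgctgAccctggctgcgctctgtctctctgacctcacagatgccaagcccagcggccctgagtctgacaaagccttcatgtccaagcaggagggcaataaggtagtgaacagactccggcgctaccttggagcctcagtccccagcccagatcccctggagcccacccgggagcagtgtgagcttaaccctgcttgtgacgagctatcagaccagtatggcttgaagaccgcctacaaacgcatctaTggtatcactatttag
Bglap2: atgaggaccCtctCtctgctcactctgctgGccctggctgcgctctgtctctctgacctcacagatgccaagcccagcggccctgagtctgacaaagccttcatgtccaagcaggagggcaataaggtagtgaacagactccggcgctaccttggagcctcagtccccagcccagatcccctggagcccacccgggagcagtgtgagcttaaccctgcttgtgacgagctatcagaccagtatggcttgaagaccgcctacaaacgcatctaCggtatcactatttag
The 288 coding bases differed at 4 positions (98.6% identity). Of all stretches of 100 bases, about the length of 1 read, 56.3% of those in the *Bglap* transcript and 57.0% of those in the *Bglap2* transcript occurred in another *Bglap* gene. The levels of *Bglap* and *Bglap2* are therefore given singly and as a sum.

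The stretches upstream of the annotated starts are shown for members that lay apart between the genotypes in bone, other than *Mgp* and *Bglap2*, from RefSeq promoters on GRCm38.p6, on the strand of the gene and ending before the first annotated exon. Capitals mark ACCACA, the core that RUNX factors such as the osteoblast regulator RUNX2 recognise, or its reverse complement TGTGGT.
Spp1: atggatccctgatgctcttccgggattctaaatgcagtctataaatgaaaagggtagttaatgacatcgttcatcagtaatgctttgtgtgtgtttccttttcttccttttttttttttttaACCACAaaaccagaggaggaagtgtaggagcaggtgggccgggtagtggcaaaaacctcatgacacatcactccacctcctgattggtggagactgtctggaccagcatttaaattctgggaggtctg
Dmp1: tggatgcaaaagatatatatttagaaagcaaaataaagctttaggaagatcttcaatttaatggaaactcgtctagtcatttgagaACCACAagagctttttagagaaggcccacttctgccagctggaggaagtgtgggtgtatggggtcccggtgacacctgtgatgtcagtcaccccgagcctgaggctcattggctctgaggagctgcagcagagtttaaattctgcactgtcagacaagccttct
Bglap: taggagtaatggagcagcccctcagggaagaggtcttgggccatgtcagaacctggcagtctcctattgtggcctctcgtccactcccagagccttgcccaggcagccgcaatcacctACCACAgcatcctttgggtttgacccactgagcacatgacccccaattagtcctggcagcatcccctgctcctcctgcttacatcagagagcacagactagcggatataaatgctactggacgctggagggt
Ibsp: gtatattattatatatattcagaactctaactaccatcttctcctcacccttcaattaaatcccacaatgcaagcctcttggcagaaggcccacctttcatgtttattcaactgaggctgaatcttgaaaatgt
Ifitm5: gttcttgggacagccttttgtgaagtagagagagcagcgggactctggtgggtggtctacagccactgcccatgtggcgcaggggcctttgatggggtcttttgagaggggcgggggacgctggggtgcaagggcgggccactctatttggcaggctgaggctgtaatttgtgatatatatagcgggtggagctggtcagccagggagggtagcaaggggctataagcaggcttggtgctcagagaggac
These lie at chr5:104434861-104435110 (*Spp1*, plus strand), chr5:104202367-104202616 (*Dmp1*, plus), chr3:88384467-88384716 (*Bglap*, minus), chr5:104299037-104299170 (*Ibsp*, plus, 134 bases) and chr7:140950244-140950493 (*Ifitm5*, minus). A match stood in the 250 bases before *Spp1*, *Dmp1*, *Bglap* and *Mepe*, 4 of the 8 genes with a promoter in the table, and in 14.0% of all 32851 promoters. No match stood in the stretches before *Ibsp*, *Sparc*, *Phex* or *Ifitm5*. A match describes the letters and not a bound site.

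Total counts lay between 8218548 and 15585778 per library. Levels are normalised counts per 1000000 (CPM, with library totals scaled by TMM factors). Labelled tissues were checked by summed CPM of marker lists. The 5 osteoblast markers (*Runx2*, *Sp7*, *Col1a1*, *Col1a2*, *Alpl*) summed to between 20339 and 52083 in bone, and the 7 chondrocyte markers (*Col2a1*, *Acan* and 5 others) to between 31195 and 38249 in condylar cartilage. In MC the chondrocyte sum was between 369 and 8899, and in 4 of the 6 MC libraries it was below the osteoblast sum of the same library, so that cartilage markers were low in tissue labelled MC. WT MC replicate 1 had the lowest chondrocyte sum (369) and the highest osteoblast sum among MC libraries (5798). WT bone replicate 3 had the highest osteoblast sum in bone (52083, against 26392 and 20339 in the other two WT bone libraries), and the condylar libraries numbered 3 had the highest osteoblast sums of their tissue (17702 in S252W, 10910 in WT). In tissue captured in bulk, fewer cells of a type and less RNA per cell cannot be told apart.

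The tissues were first compared in WT embryos. Bone held most of the RNA of these genes, and condylar cartilage held less *Spp1*, *Dmp1*, *Phex* and *Sparc*, with *Ibsp* and *Ifitm5* in ranges that overlapped bone. MC held *Sparc* and *Mgp*, with *Spp1* up to 45.5 CPM and *Ifitm5* up to 24.6 CPM. But for *Ibsp* in 1 library, MC held little of the rest. *Mgp* ran the other way and was lowest in bone and, in the mean, highest in condylar cartilage. Differences were tested with voom and limma over all 18 libraries in 6 groups, after a filter that kept genes above 1 FPKM (CPM per kilobase of gene length, for the filter without TMM factors) in at least 50% of libraries. The filter kept 7 members of 10 among 11469 genes and dropped *Mepe*, *Bglap* and *Bglap2*, which were near 0 outside bone, so that counts over the 7 describe only members with RNA in several tissues. In the 6 MC libraries alone it kept 5 members. *Dmp1* and *Phex* passed it through bone and condylar cartilage, where they were high. Their calls against MC were thus favoured by the filter and are no support in the counts below. Between bone and MC, 7 of 7 passed an adjusted p of 0.05, 6 higher in bone and *Mgp* lower, where 34.0% of all genes passed, 18.1% higher and 15.9% lower. Between bone and condylar cartilage 5 of 7 passed (37.4% of all genes), and between condylar cartilage and MC 6 of 7 (45.0% of all genes).

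*Spp1*, the gene of osteopontin, measured 2304, 2929 and 2298 CPM in WT bone replicates 1 to 3, 236, 95.8 and 343 CPM in condylar cartilage, and 3.72, 45.5 and 34.7 CPM in MC. The tissues did not overlap, and MC replicate 1 was far below the other MC libraries. The fitted log2 difference was 3.66 ± 0.54 (SE) between bone and condylar cartilage (adjusted p = 1.93e-05) and 7.47 ± 0.78 between bone and MC (adjusted p = 1.34e-06). Without WT MC replicate 1 the latter was 5.99, and without replicate 2 it was 8.16.

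*Ibsp*, the gene of bone sialoprotein, measured 6536, 4965 and 7099 CPM in WT bone and 2897, 2315 and 5748 CPM in condylar cartilage, and the condylar library numbered 3 lay within the range of bone. It measured 230, 7.27 and 4.499 CPM in MC. The difference between bone and condylar cartilage was 0.85 ± 0.63 on the log2 scale, with a 95% confidence interval from -0.47 to 2.17 and an adjusted p of 0.313. Between bone and MC it was 7.72 ± 0.89 (adjusted p = 3.67e-06), and with an MC library left out it lay between 6.81 (without WT replicate 3) and 10.06 (without WT replicate 1). The difference from condylar cartilage was 1.23 without both condylar libraries numbered 3 (adjusted p = 0.102), and with sample quality weights it was 0.99 and passed (adjusted p = 0.0215).

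*Dmp1*, whose product is needed for osteocyte maturation and mineralization, measured 136, 91.5 and 194 CPM in WT bone, 35.8, 11.8 and 19.5 CPM in condylar cartilage and 0, 1.34 and 0 CPM in MC. Only 1 WT MC library had any count, with 7 fragments. The log2 difference from bone was 2.72 ± 0.42 in condylar cartilage (adjusted p = 3.70e-05) and 9.71 ± 1.65 in MC (adjusted p = 1.98e-04). With so few counts the latter moved with the MC library left out, to 8.55 without WT MC replicate 1 and 11.01 without replicate 2.

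*Mepe*, *Bglap* and *Bglap2* were read almost only in bone. *Bglap* had 79, 110 and 212 counts in WT bone, 1, 0 and 1 in WT condylar cartilage and 0 in each of the 3 MC libraries. *Bglap2* had 95, 123 and 225 counts in WT bone and 0 in the other 6 WT libraries. *Mepe*, which encodes a matrix phosphoglycoprotein of osteocytes, had 56, 22 and 135 counts in WT bone, 3, 0 and 1 in condylar cartilage and 0 in MC. Against the floor set by 3 counts over a group of 3 libraries, the WT bone mean was at least 60.0-fold higher than MC for *Bglap*, at least 66.5-fold for *Bglap2* and at least 30.8-fold for *Mepe*, and for *Bglap2* at least 114-fold higher than condylar cartilage. Such floors cover counting error only.

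*Mgp* measured 20.6, 20.3 and 13.6 CPM in WT bone, 122, 130 and 70.4 CPM in condylar cartilage and 38.0, 81.7 and 61.1 CPM in MC. Every bone library was below every cartilage library, by -2.55 ± 0.44 on the log2 scale against condylar cartilage (adjusted p = 1.19e-04) and by -1.64 ± 0.48 against MC (adjusted p = 0.0128). The second call was lost without WT bone replicate 3 (-1.42, adjusted p = 0.0587) or WT MC replicate 2 (-1.39, adjusted p = 0.0563), and without WT MC replicate 1 the value was -1.98. Condylar cartilage and MC differed by 0.92 ± 0.42 (adjusted p = 0.0829). With the embryo as a block they differed by 0.88 in the fit of those 6 libraries (adjusted p = 0.0387) and by 0.92 in that of 18 libraries (adjusted p = 0.0318). Without both condylar libraries numbered 3, which had the lowest *Mgp* of their groups, this difference was 1.21 (adjusted p = 4.06e-04).

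*Sparc* measured between 8595 and 15015 CPM in WT bone, between 4910 and 6955 CPM in condylar cartilage and between 956 and 1091 CPM in MC, and all 3 differences passed, by 1.00, 3.42 and 2.43 on the log2 scale for bone over condylar cartilage, bone over MC and condylar cartilage over MC. *Phex*, the gene mutated in X-linked hypophosphatemia, measured between 335 and 551 CPM in bone, between 46.4 and 149 CPM in condylar cartilage and between 1.31 and 13.3 CPM in MC. Its 3 differences passed too, by 2.44, 6.11 and 3.68, and those with MC were 7.13 and 4.71 without WT MC replicate 1 and 5.34 and 2.94 without WT MC replicate 3. *Ifitm5*, mutated in a form of osteogenesis imperfecta, measured 207, 212 and 251.98 CPM in bone and 140, 132 and 218 CPM in condylar cartilage, where the library numbered 3 lay within the bone range. Its log2 difference between these tissues was 0.49 ± 0.25 (adjusted p = 0.127), or 0.71 and past the threshold without WT condylar replicate 3 (adjusted p = 0.0398), and both were above MC, which had 24.6, 3.63 and 12.2 CPM. Bone lay above MC by 4.19 on the log2 scale, by 5.05 without WT MC replicate 1 and by 3.58 without WT MC replicate 2.

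**Figure D1:**
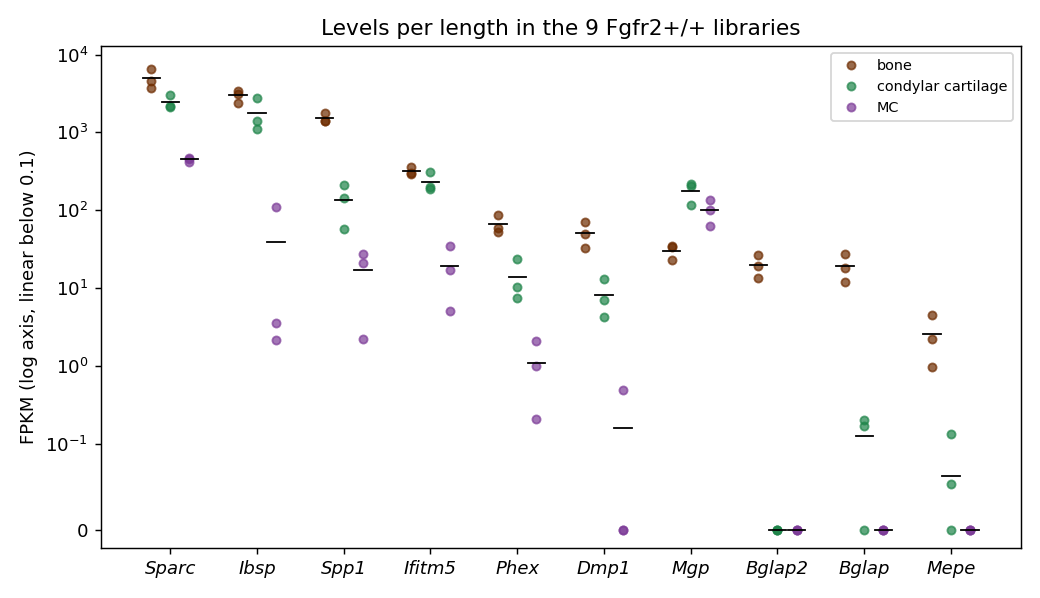
FPKM of the 10 genes (symbols on the horizontal axis, ordered by their mean in bone) in the 9 WT libraries, on a log axis that is linear below 0.1, with 1 point per library and a bar at the mean of 3 libraries. *Ibsp* and *Ifitm5* overlap between bone and condylar cartilage, *Sparc* is lower in condylar cartilage in every library, *Mgp* alone is lowest in bone, and *Bglap*, *Bglap2* and *Mepe* are at or near 0 in both cartilages.

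Some calls between tissues rested on the fit. With the 6 WT libraries of bone and condylar cartilage fitted alone, *Ibsp* passed (0.84, adjusted p = 0.0350), where 43.3% of all genes did. With the embryo as a block in these 6 libraries *Ifitm5* passed as well (0.47, adjusted p = 0.0265), where 42.3% of all genes did. With that block in the fit of 18 libraries neither passed, at 0.84 for *Ibsp* (adjusted p = 0.321) and 0.48 for *Ifitm5* (adjusted p = 0.107). *Mepe*, *Bglap* and *Bglap2* entered these fits only through the bone libraries, in which they were high, and are not counted.

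Levels of different genes can be set side by side per length. In WT bone the order by mean FPKM was *Sparc* (4967 ± 1425, SD, n = 3), *Ibsp* (2998 ± 535), *Spp1* (1523 ± 220), *Ifitm5* (315 ± 35.2), *Phex* (66.9 ± 18.3), *Dmp1* (50.9 ± 18.7), *Mgp* (30.4 ± 6.62), *Bglap2* (19.9 ± 6.77), *Bglap* (19.2 ± 7.63) and *Mepe* (2.57 ± 1.81). Each of the first 4 was above its follower in every library. The ranges of neighbours overlapped from *Phex* through *Bglap*, so that their order is not fixed by 3 libraries. In S252W bone the means of the first genes were *Sparc* 4826 ± 144 FPKM, *Spp1* 2389 ± 504 FPKM and *Ibsp* 1829 ± 183 FPKM, so that the means of *Spp1* and *Ibsp* stood in the opposite order to WT bone, with overlapping ranges. *Dmp1* (110 ± 34.1 FPKM) stood above *Phex* (58.2 ± 6.80 FPKM) there, and *Mgp* (12.8 ± 1.74 FPKM) below both osteocalcin genes. In WT condylar cartilage *Sparc* (2444 ± 502 FPKM) and *Ibsp* (1767 ± 888 FPKM) led with overlapping ranges. In WT MC the means of *Sparc* (450.4 ± 30.9 FPKM) and *Mgp* (101 ± 36.5 FPKM) led. The range of *Mgp* there overlapped that of *Ibsp*, which reached 111 FPKM in replicate 1.

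The genotypes were then compared within bone, the tissue with the highest levels. In S252W bone *Spp1*, *Dmp1* and both osteocalcin genes were higher, and *Ibsp*, *Mgp* and *Ifitm5* lower, than in every WT bone library, whereas *Sparc*, *Phex* and *Mepe* overlapped. Of 10 members 7 did not overlap between the genotypes, where 20.6% of the 12322 genes kept in bone did not, 4 of them higher (10.9% of genes) and 3 lower (9.70% of genes). In the fit of all 18 libraries none of the 7 members tested passed, nor any of 10 with a filter on counts that kept *Mepe*, *Bglap* and *Bglap2* (0.141% of genes), where 4 had an unadjusted p below 0.05 (8.23% of genes). The first fit called 10 genes of 11469 in bone (0.0872%), and 2 of the 7 members had an unadjusted p below 0.05 (8.13% of genes). By edgeR 0 of 7 passed (0.0349% of genes) and 2 had such a p (4.89%), and by DESeq2, which gave no adjusted p for *Ibsp*, 0 of 6 passed (0.157%) and 1 had such a p (5.81%). When the 6 bone libraries were fitted alone, so that the spread came from bone only, limma called 141 genes of 12322 (1.14%) and 1 of 10 members, *Mgp*, with 7 of 10 at an unadjusted p below 0.05 (16.1% of genes).

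**Figure D2:**
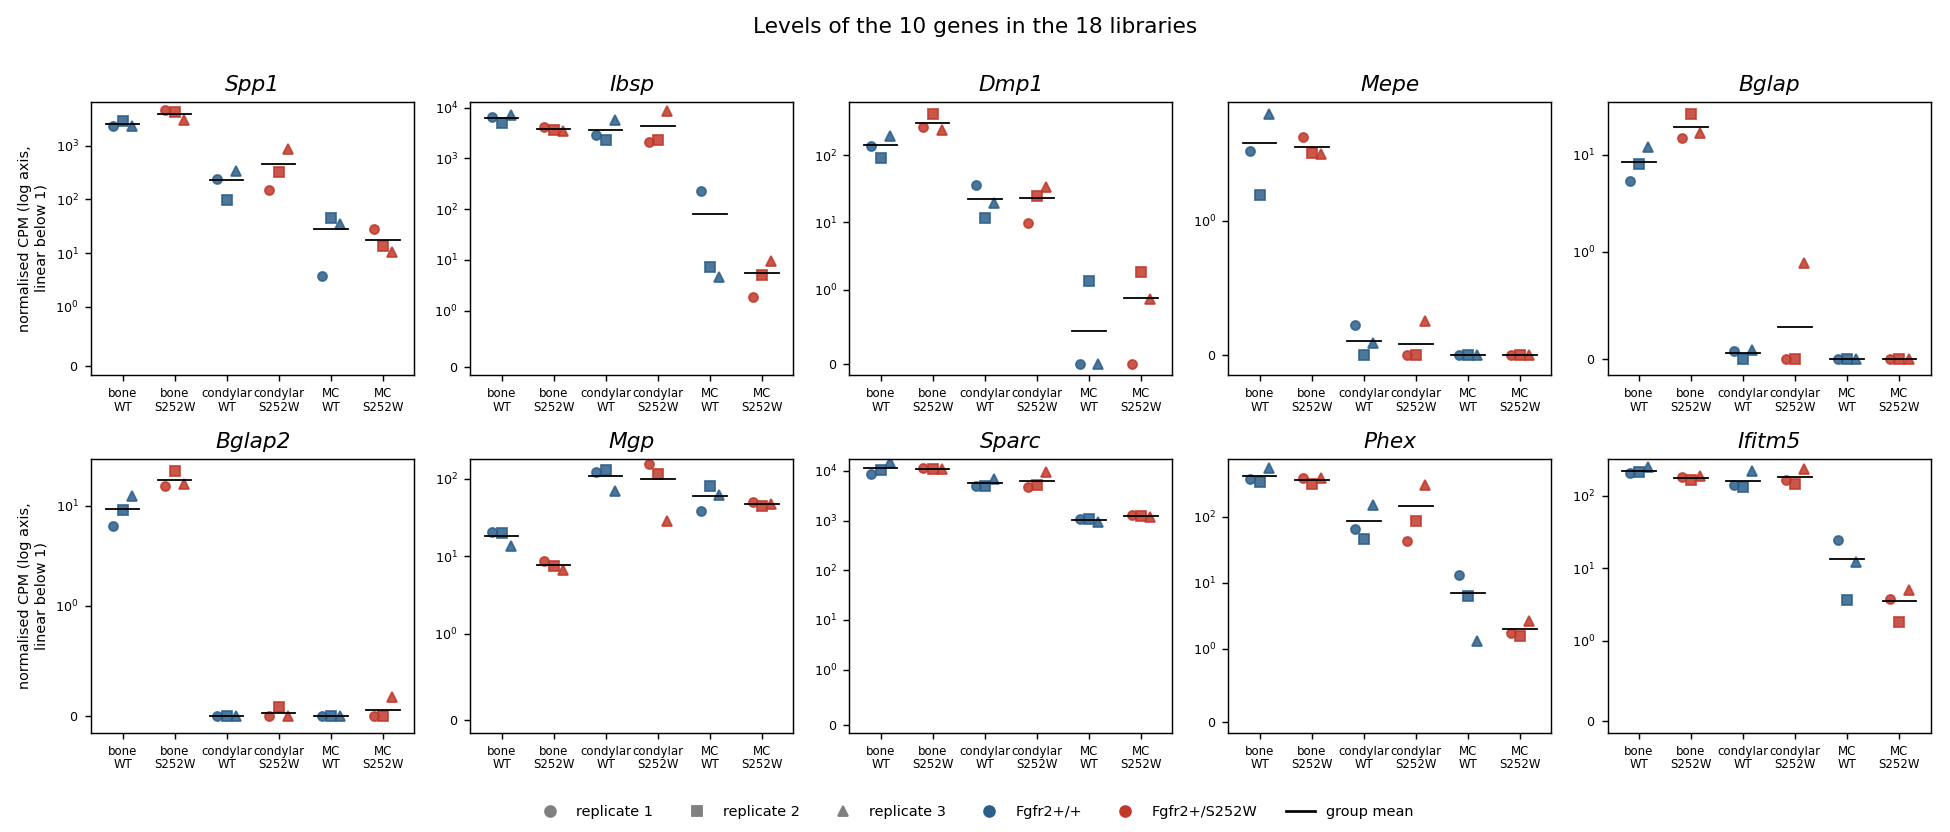
Normalised CPM of each of the 10 genes (1 panel per gene, log axis that is linear below 1) in the 6 groups on the horizontal axis, with 1 symbol per library and a bar at the mean of 3. In bone the S252W libraries of *Spp1*, *Dmp1*, *Bglap* and *Bglap2* sit above all WT libraries and those of *Ibsp*, *Mgp* and *Ifitm5* below, while the groups overlap in condylar cartilage in every panel.

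*Spp1* measured 4628, 4167 and 3015 CPM in S252W bone and 2304, 2929 and 2298 CPM in WT bone. The lowest S252W library was just above the highest WT library. The means differed 1.57-fold, and the fit of 18 libraries gave a log2 difference of 0.63 ± 0.55 (adjusted p = 0.854) and that of the 6 bone libraries 0.62 ± 0.19 (adjusted p = 0.148). *Ibsp* ran in the other direction, with 4217, 3580 and 3547 CPM in S252W bone against 6536, 4965 and 7099 CPM in WT bone. All 3 S252W libraries were below the lowest WT library, at a log2 difference of -0.70 ± 0.65 (adjusted p = 0.866) in 18 libraries and -0.70 ± 0.18 (adjusted p = 0.0855) in the 6 of bone.

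*Dmp1* measured 265, 412 and 237 CPM in S252W bone and 136, 91.5 and 194 CPM in WT bone. WT replicate 3 was the WT library nearest to the S252W group. The means differed 2.17-fold, with a log2 difference of 1.13 ± 0.33 in 18 libraries (adjusted p = 0.286) and 1.13 ± 0.25 in the bone libraries (adjusted p = 0.0573). *Mepe* measured 4.91, 3.63 and 3.53 CPM in S252W bone and 3.75, 1.61 and 7.62 CPM in WT bone, where the WT libraries spanned the S252W range. Its difference of 0.05 ± 0.41 had a 95% confidence interval from -0.85 to 0.94.

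*Bglap* measured 14.7, 26.3 and 16.5 CPM in S252W bone and 5.29, 8.07 and 11.97 CPM in WT bone. *Bglap2* measured 15.9, 22.2 and 16.5 CPM against 6.36, 9.02 and 12.7 CPM. For both, S252W replicate 2 was highest, and WT replicate 3 was the WT library nearest to the S252W group. The fit of the bone libraries gave 1.19 ± 0.29 for *Bglap* (adjusted p = 0.0728) and 0.98 ± 0.23 for *Bglap2* (adjusted p = 0.0707). The counting command in the file headers did not ask for fragments with several map positions, so that fragments shared by the copies may be missing from each level and from the sum. The sum of both genes was 30.6, 48.5 and 33.1 CPM in S252W bone and 11.6, 17.1 and 24.7 CPM in WT bone, again without overlap.

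*Mgp* measured 8.80, 7.49 and 6.74 CPM in S252W bone and 20.6, 20.3 and 13.6 CPM in WT bone. The S252W libraries were close together and all below the lowest WT library. The log2 difference was -1.21 ± 0.55 in 18 libraries (adjusted p = 0.601) and -1.22 ± 0.20 in the 6 bone libraries (adjusted p = 0.0187), the member that passed there. With 1 of the 6 bone libraries left out, *Mgp* kept its direction throughout and passed without S252W replicate 3 (adjusted p = 0.0468) or WT replicate 3. It did not pass without S252W replicate 1 (adjusted p = 0.0852) or 2 (0.136), or without WT replicate 1 (0.0829) or 2 (0.0662).

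*Ifitm5* measured 181, 167 and 188 CPM in S252W bone and 207, 212 and 251.98 CPM in WT bone, a log2 difference of -0.32 ± 0.13 in the bone libraries (adjusted p = 0.241). *Phex* measured 391.7, 317 and 390 CPM against 377, 335 and 551 CPM, and *Sparc* 11474, 10985 and 10841 CPM against 8595, 10660 and 15015 CPM. In both the S252W libraries lay together and WT replicate 3 was the highest of the 6. The intervals of the log2 difference reached from -0.57 to 0.21 for *Phex* and from -0.45 to 0.44 for *Sparc*.

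**Figure D3:**
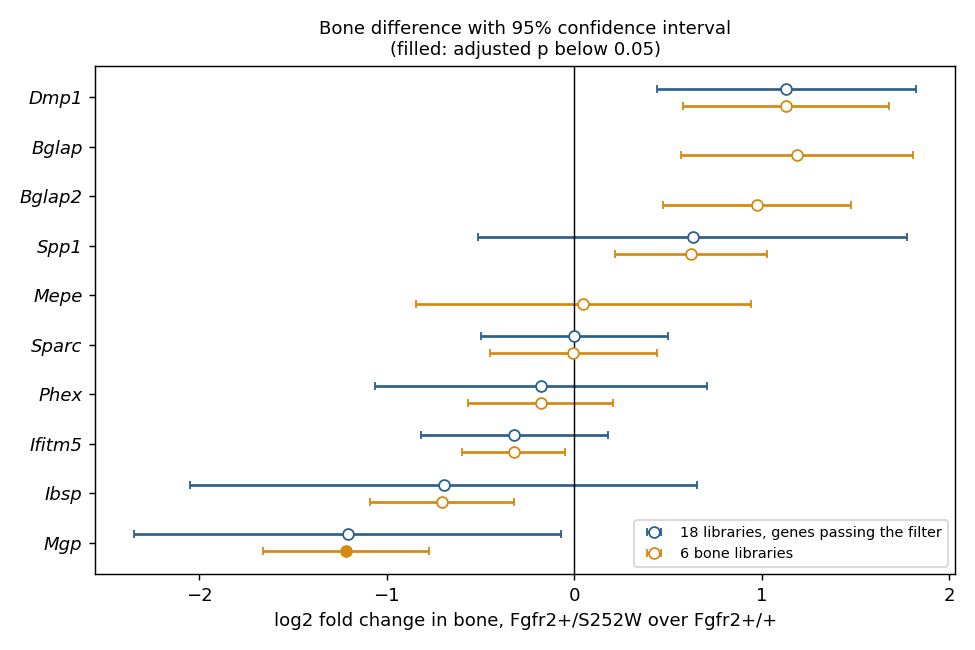
Log2 fold change in bone, S252W over WT, with its 95% confidence interval (horizontal axis) for the 10 genes, in the fit of 18 libraries (7 genes) and of the 6 bone libraries (10 genes); filled symbols have an adjusted p below 0.05. *Mgp* in the bone libraries is the only filled symbol, and the estimates of both fits lie close together, with narrower intervals in bone alone.

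The number of members called moved with WT bone replicate 3 and with the tool. Without that library, limma on the other 5 bone libraries called 1370 genes of 11992 (11.4%) and 5 of 10 members, *Dmp1* (1.39, adjusted p = 0.00301), *Bglap* (1.51, adjusted p = 0.00955), *Bglap2* (1.24, adjusted p = 0.00657), *Ibsp* (-0.61, adjusted p = 0.0192) and *Mgp* (-1.44, adjusted p = 7.40e-04). *Spp1* was at 0.56 (adjusted p = 0.0561). This library also differed from the other WT bone libraries in its mitochondrial share of counts, 20.4% against 36.0% and 34.8%, with 23.4% to 23.6% in S252W bone. The share of counts on *Gm42418* was lower in every S252W bone library (5.58% to 6.49%) than in WT bone (8.57% to 9.33%), and lay between 10.9% and 20.2% in condylar cartilage and between 24.1% and 39.4% in MC. With the mitochondrial genes and *Gm42418* left out of the fit of 18 libraries, 0 of 7 members passed in bone by limma (0.0612% of genes), as with them. The part of these shares in the differences was not tested. With DESeq2 on the 6 bone libraries 5 of 10 members passed, *Bglap*, *Bglap2*, *Ibsp*, *Mgp* and *Spp1* (3.68% of genes), and with edgeR only *Mgp* did (1.52% of genes).

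*Spp1* and *Ibsp* were also set against each other within each library, a ratio into which no scaling between libraries enters. Per length, the ratio of *Spp1* to *Ibsp* was 1.38, 1.46 and 1.07 in S252W bone and 0.442, 0.740 and 0.406 in WT bone. *Spp1* was thus above *Ibsp* in every S252W bone library and below it in every WT bone library. In condylar cartilage the ratio was 0.0876, 0.174 and 0.127 in S252W and 0.102, 0.0519 and 0.0749 in WT embryos, where the genotypes overlapped. In MC it ranged from 1.37 to 18.8 in S252W and from 0.0203 to 9.67 in WT embryos, with few *Ibsp* counts in all but WT replicate 1. The ratio was chosen after the values were seen and was not tested.

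**Figure D4:**
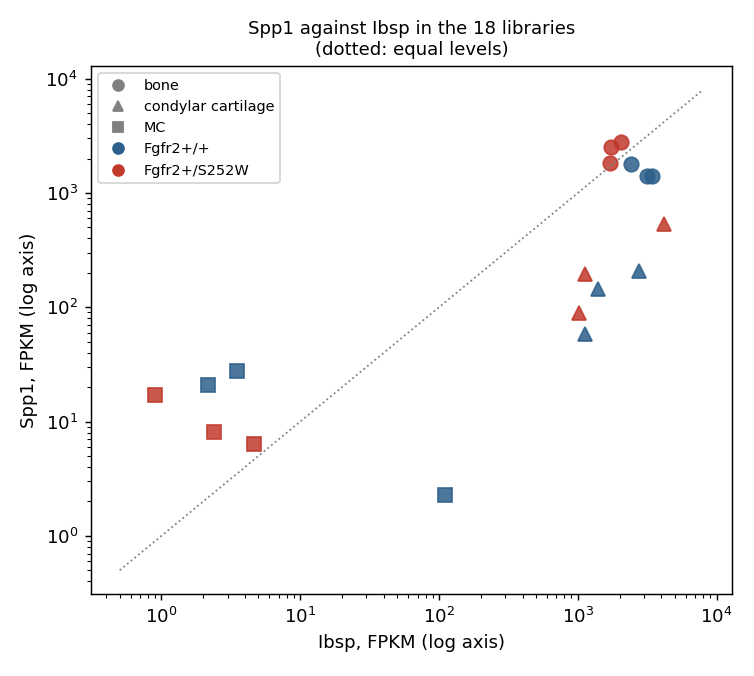
*Spp1* against *Ibsp*, both in FPKM on log axes, with 1 symbol per library (shape for tissue, colour for genotype) and a dotted line at equal levels. The S252W bone libraries lie above the line and the WT bone libraries below it, all condylar libraries lie below it, and WT MC replicate 1 stands apart from the other MC libraries at high *Ibsp* and low *Spp1*.

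Markers of other cell types differed between the genotypes in bone, beside these genes. All 8 of 8 osteoclast markers (*Acp5*, *Ctsk*, *Mmp9*, *Calcr*, *Oscar*, *Ocstamp*, *Dcstamp*, *Atp6v0d2*) were higher in every S252W library than in any WT library, with sums of 2377, 2136 and 1719 CPM against 921, 1189 and 1172 CPM, and limma on bone alone called 8 of 8. Of the 12322 genes kept in bone, 10.9% were higher and 9.70% lower without overlap, and that fit called 1.14%. The study had already named *Acp5*, *Calcr*, *Ctsk* and *Oscar* as upregulated in its mandibular bone data. The count of these markers is therefore not an independent result. The ratio of the mean osteoclast sums was 1.90, where that of *Spp1*, which osteoclasts also make, was 1.57. The osteoblast sum overlapped (42232 to 43607 CPM in S252W, 20339 to 52083 CPM in WT), and 0 of 5 osteoblast markers passed. All 5 macrophage markers were lower without overlap (sums of 4.39 to 5.25 CPM in S252W and 12.7 to 22.3 CPM in WT), as were all 5 red blood cell markers (313 to 595 CPM in S252W and 1250 to 1503 CPM in WT). Of the 4 smooth muscle markers 2 were lower without overlap, with sums of 18.3 to 22.3 CPM in S252W and 34.6 to 48.1 CPM in WT, beside *Mgp*, which smooth muscle also makes. Skeletal muscle markers summed to 0.973 to 19.9 CPM in S252W and 20.4 to 187 CPM in WT, with WT replicate 3 the lowest of the WT libraries. Of the 5 skeletal muscle markers 3 were lower without overlap. The sums of endothelial, hypertrophic chondrocyte, and tooth and oral epithelial markers overlapped, and those of fibroblast and chondrocyte markers were higher in S252W without overlap (1.18-fold and 2.12-fold in the means). Of single genes in these lists, 1 of 5 endothelial markers was lower and 1 of 5 fibroblast markers higher without overlap, and of 7 chondrocyte markers 2 were higher and 1 lower. The part of these cells in the differences of *Spp1*, *Mgp* and the other members was not tested.

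**Figure D5:**
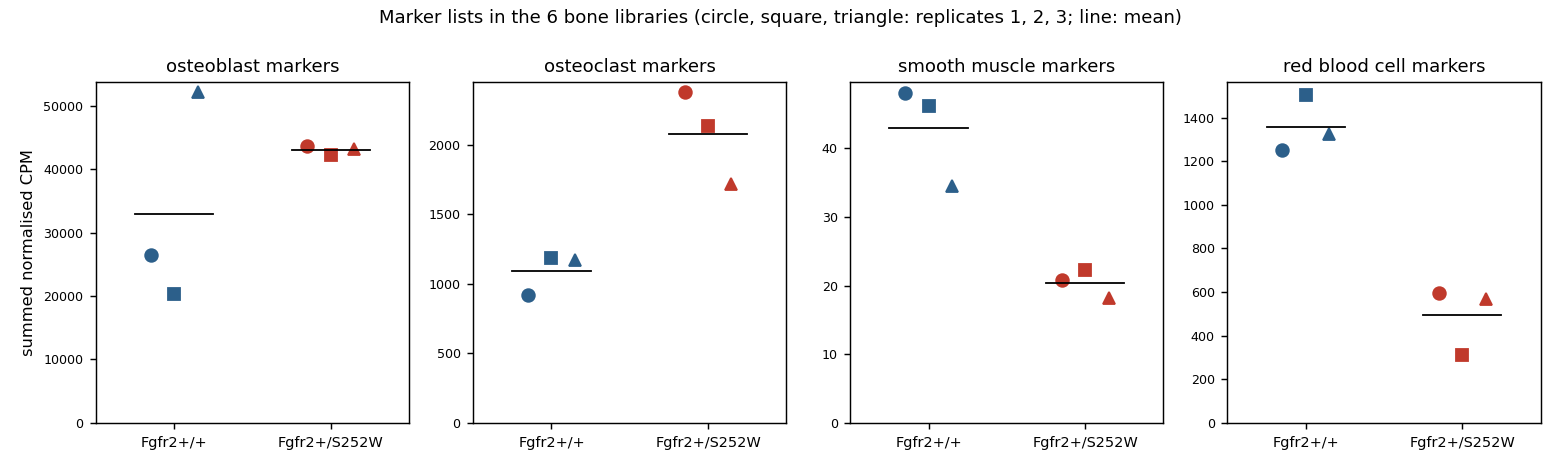
Summed normalised CPM of 4 marker lists (panels) in the 6 bone libraries by genotype (horizontal axis), with 1 symbol per library and a bar at the mean of 3, on axes that start at 0. Osteoclast sums are higher in all S252W libraries, smooth muscle and red blood cell sums lower, and the osteoblast sums overlap because WT replicate 3 is above and the other WT libraries below the S252W group.

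In condylar cartilage no member passed the test between genotypes. Of 7 members 0 lay apart without overlap (9.77% of genes did), and 0 passed by limma or edgeR (0.00% of genes by each) or, of 6, by DESeq2 (0.0262% of genes). An unadjusted p below 0.05 was reached by 0 members, beside 3.06% of genes by limma, 3.48% by edgeR and 4.03% by DESeq2. *Spp1* measured 148, 324 and 876 CPM in S252W and 236, 95.8 and 343 CPM in WT condylar cartilage, and *Ibsp* 2117, 2341 and 8670 CPM against 2897, 2315 and 5748 CPM. In both genotypes the library numbered 3 was the highest. The same was so for *Phex*, *Sparc* and *Ifitm5*, while *Mgp* was lowest in the libraries numbered 3, at 28.9 CPM in S252W against 153 and 114 CPM and at 70.4 CPM in WT. The log2 difference was 0.78 for *Spp1* (95% interval -0.33 to 1.90) and 0.08 for *Ibsp* (-1.18 to 1.35), and without both libraries numbered 3 it was 0.52 and -0.22. With 1 condylar library left out, that of *Spp1* lay between 0.13 (without S252W replicate 3) and 1.42 (without S252W replicate 1). These libraries also had the highest sums of the 3 hypertrophic chondrocyte markers (*Col10a1*, *Ihh*, *Pth1r*), 3793 CPM against 1498 and 1923 CPM in S252W and 4922 CPM against 2748 and 2585 CPM in WT. The part of this in the levels of the members was not tested.

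In MC 1 of 7 members lay apart without overlap (13.4% of genes did). *Sparc* measured 1309, 1266 and 1191 CPM in S252W and 1091, 1062 and 956 CPM in WT MC, a log2 difference of 0.28 ± 0.20 (adjusted p = 0.528). By limma 0 of 7 members passed (0.00% of genes), with 1 at an unadjusted p below 0.05 (15.4% of genes). By edgeR 0 of 7 passed (0.785% of genes), with 3 at such a p (16.9%). By DESeq2 1 of 6, *Ifitm5*, passed (3.69% of genes), with 2 at such a p (18.2%). *Ifitm5* measured 3.74, 1.80 and 5.08 CPM in S252W and 24.6, 3.63 and 12.2 CPM in WT MC, with a log2 difference of -1.81 ± 0.71 (adjusted p = 0.242). *Ibsp* measured 1.87, 4.95 and 9.63 CPM in S252W and 230, 7.27 and 4.499 CPM in WT MC, so that a single WT library set the difference of -2.77 ± 1.55 (adjusted p = 0.401). Without that library, WT MC replicate 1, it was -0.42, and that of *Ifitm5* was -0.95. Without WT MC replicate 2 they were -3.43 and -2.42, and *Ifitm5* passed (adjusted p = 0.0462, where 1.21% of all genes did). Osteoclast markers summed to 64.0 to 70.5 CPM in S252W and 89.4 to 257 CPM in WT MC, and macrophage markers to 52.7 to 74.4 CPM and 10.4 to 40.6 CPM, and their part in these levels was not tested.

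Whether the genotype difference varied between tissues was tested directly. For none of the 7 members did it pass in any of the 3 tests by limma or edgeR, nor for any of 6 by DESeq2. For bone against condylar cartilage the share of all genes that passed was 0.00% by limma, 0.00% by edgeR and 0.0436% by DESeq2, for bone against MC 0.0523%, 0.0436% and 0.820%, and for condylar cartilage against MC 0.00%, 0.00% and 0.837%. At an unadjusted p below 0.05 stood, for bone against condylar cartilage, 1 member by limma (3.00% of genes), 0 by edgeR (2.48%) and 0 by DESeq2 (2.91%). For bone against MC there were 0 by limma (10.9%), 2 by edgeR (9.95%) and 1 by DESeq2 (11.3%), and for condylar cartilage against MC 1 (9.51%), 3 (9.95%) and 2 (11.0%). The largest separation of bone from condylar cartilage was for *Dmp1*, at 1.25 with an interval from 0.00 to 2.50 (adjusted p = 1.00). The difference for *Mgp* was -0.91 (-2.30 to 0.49) and for *Spp1* -0.15 (-1.75 to 1.45), so that the data do not separate the response of *Spp1* in bone from that in condylar cartilage. Without S252W condylar replicate 3 these were -1.55 for *Mgp* (adjusted p = 0.774), 0.51 for *Spp1* and 1.59 for *Dmp1*, and with any library left out that of *Dmp1* lay between 0.64 and 1.64 and that of *Mgp* between -1.55 and -0.43.

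The other genes of these pathways were taken from a list of 36 in 6 groups, of which 21 were kept in 18 libraries. Between WT bone and condylar cartilage 14 passed higher in bone and 4 lower (37.4% of all genes passed). Those with the smallest p were *Sparcl1*, a relative of *Sparc* (log2 difference 4.29), the gap junction gene *Gja1* of osteocytes (2.54), the integrin gene *Itgav* (1.66), whose product binds RGD proteins, and the vitamin K-dependent *Pros1* (2.59). Between WT bone and MC 9 were higher and 4 lower (34.0% of all genes), led by *Fkbp11* (3.31), whose product binds the IFITM5 protein, *Sparcl1* (2.12), *Itgav* (1.02) and *Itgb3* (2.92). Between WT condylar cartilage and MC 4 were higher and 11 lower (45.0% of all genes), with *Fkbp11* at 4.54, *Fstl1* at -2.93 and *Spock2* at -2.30, both of the SPARC family, and *Gja1* at -1.80. The median log2 difference over the 21 genes was 1.35, 0.62 and -0.74 in these comparisons, beside 0.00, 0.02 and 0.02 over all genes.

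Between genotypes 0 of the 21 genes passed in any tissue in the fit of 18 libraries by limma, with 6 in bone (8.13% of all genes), 1 in condylar cartilage (3.06%) and 2 in MC (15.4%) at an unadjusted p below 0.05, and their median was 0.10 in bone. With bone alone, 4 of 23 passed (1.14% of all genes). *Itgb3*, the integrin subunit that pairs with the *Itgav* product and is abundant on osteoclasts, was higher (1.11 ± 0.20, adjusted p = 0.0249), as was *Pros1* (0.67 ± 0.14, adjusted p = 0.0462). *Smoc2*, a relative of *Sparc*, was lower (-1.07 ± 0.22, adjusted p = 0.0426), and so was *Pdpn*, a gene of early osteocytes (-1.04 ± 0.22, adjusted p = 0.0460). Of the 7 genes for processing and modification, which include the vitamin K-dependent carboxylase *Ggcx* and the kinase *Fam20c* that phosphorylates SIBLING proteins, 7 were tested in bone and 0 passed. The tooth and enamel genes *Ambn*, *Amelx* and *Enam* and the other relatives of the SIBLING and osteocalcin families were not kept in 18 libraries.

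The genes outside the member list with the pattern most like each member over the 18 libraries are given as a description, since libraries share tissue and embryo. Among these non-member genes the correlation of log2 CPM was highest for *Spp1* with *Enpp6* (r = 0.97), *Mamdc2* and *Arhgap24* (0.94 each), for *Ibsp* with *Btla* (0.99), *Wif1* and *Tnfaip2* (0.98 each), and for *Dmp1* with *Dstn*, *Enpp6* and *Itm2b* (0.96, 0.95 and 0.95). For *Phex* it was highest with *Col22a1* (0.99), *Col5a2* and *Spon1* (0.98 each), for *Sparc* with *Itm2b* (0.98), *Dkk1* (0.98) and *Col24a1* (0.97), for *Ifitm5* with *Wif1*, *Cthrc1* and *Srpx2* (0.98, 0.97 and 0.97), and for *Mgp* with *Tgfb2*, *Lpar4* and *Rtl3* (0.96, 0.94 and 0.94). Among the members, *Ibsp* was most like *Ifitm5* (r = 0.98) and *Spp1* most like *Dmp1* (r = 0.95), and *Mgp* correlated negatively with each of the other 6 (r from -0.62 to -0.27).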

How the data were processed

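The deposited files hold read counts per gene, 1 file per library. The authors mapped paired reads to mm10 with STAR and counted them with featureCounts (1.5.0-p1 in the file headers, with Ensembl 75 genes). The submitters' processing notes also name cutadapt, RSEM and limma. Here the counts were read as deposited, and FPKM were computed from them and the gene lengths in the files. A gene was kept where its FPKM exceeded 1 in 50% or more of the fitted libraries (11469 of 38243 in 18 libraries), scaled by TMM (edgeR 4.0.16) and tested with voom and limma 3.58.1 in R 4.3.3 with 1 mean per group and Benjamini-Hochberg adjustment, at an adjusted p of 0.05. Printed CPM are per 1000000 counts on kept genes after TMM. Residual degrees of freedom were 12. Where no tool is named, standard errors, intervals (95%) and p-values come from limma. edgeR's quasi-likelihood test, DESeq2 1.42.0, other filters, fits of 6 libraries, replicate blocks and libraries left out were alternatives. Simulated counts in which the changes were known served to test the fit.

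The text names all 10 members, at most 4 genes of the pathway list with the smallest p among those past the threshold in a comparison, and the 3 non-member genes most correlated with each member kept. The members and lists were chosen with earlier results of these data known. A gene of the osteoblast marker list is not reported here, and the list was summed without it. Library totals lay between 8218548 and 15585778. No 2 libraries were duplicates. Replicate numbers were given within genotype and tissue. The reported tests hold no pairing. The embryo inferred from the labels was a block in alternatives between tissues, where deviations of libraries of 1 embryo correlated from -0.097 to 0.096. The study's methods call the WT embryos littermates and do not say which embryos shared a litter, so that p-values measure the spread between these libraries. Gene positions are those of mm10, and promoters are from RefSeq on GRCm38.p6.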

Additional observations from a re-analysis of the deposited data

How the results depend on the processing

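Over 39 alternatives, 1399 log2 differences of single members were recomputed for 48 comparisons of a member. Of these 1312 kept their direction and their side of the threshold, 36 passed where the reported fit did not, 3 no longer passed and 48 changed direction. The 3 were *Mgp* between WT bone and MC without WT bone replicate 3 or WT MC replicate 2, and *Dmp1* between WT condylar cartilage and MC with sample quality weights (6.73, adjusted p = 0.0715 by limma). DESeq2 gave no adjusted p for *Ibsp* over 18 libraries, and these values are not counted.

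In bone 0 of 7 members passed between genotypes over 18 libraries. With the 6 bone libraries alone 1 of 10 passed by limma (1.14% of all genes), 1 by edgeR (1.52%) and 5 by DESeq2 (3.68%). Over 18 libraries with sample quality weights 2 of 7 passed (*Dmp1* and *Mgp*, where 5.14% of all genes passed). With each library left out in turn, the number in bone was 0 over 18 libraries. In bone alone it was 5 without WT bone replicate 3, where 11.4% of all genes passed. Without S252W bone replicate 3 only *Mgp* passed in bone alone (adjusted p = 0.0468 by limma), and 0 members passed without any of the others. In MC the number was between 0 and 1 (1, *Ifitm5*, without WT MC replicate 2, where 1.21% of all genes passed). It was 0 in condylar cartilage and for the 3 tests between tissues. In MC DESeq2 called 1, *Ifitm5* (3.69% of all genes). For WT bone against condylar cartilage 5 of 7 passed over 18 libraries (37.4% of all genes) and 6 in 6 libraries alone (43.3%). With a filter on counts 5 passed (38.3%), with no filter 6 (22.7%) and with sample quality weights 7 (47.6%). With a library left out, 6 to 7 passed for both other tissue comparisons, beside 26.2% to 38.7% of all genes for bone against MC and 38.9% to 46.3% for condylar cartilage against MC.

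With the replicate number as a block, 5 of 10 members passed in the 6 bone libraries (539 of the 12322 genes kept there), namely *Bglap*, *Bglap2*, *Dmp1*, *Ibsp* and *Mgp*. Those numbers are shared by the genotypes only as numbers, and whether they pair the embryos is not known. Deviations from the group means correlated between -0.21 and 0.35 in S252W and WT libraries of the same number. In bone 4 of 6 libraries, in MC 0 of 6 and in condylar cartilage 2 of 6 correlated best with their own number. The tissues thus shared no pattern, and these values do not show that the numbers pair the embryos. With the embryo as a block 7 of 7 passed between WT bone and condylar cartilage in 6 libraries (42.3% of all genes), and 5 of 7 over 18 libraries (35.5%).

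The changes of direction were all in differences that did not pass, and their cause was not tested. For *Mepe* in bone the value was -0.12 with DESeq2, -0.13 with edgeR and -0.11 with the replicate block, and between -0.48 and 0.64 with a library left out. For *Sparc* in bone it was -0.045 and -0.047 with DESeq2 and edgeR in bone alone, -0.0054 by limma in bone alone, -0.047 with DESeq2, -0.0059 with its size factors and -0.041 with edgeR over 18 libraries, and between -0.19 and 0.21 with a library left out (-0.031 without S252W replicate 1 and -0.037 without WT replicate 2 in bone alone). For *Phex* in bone it was 0.021 without WT replicate 3 in bone alone, and between -0.33 and 0.036 with a library left out. For *Spp1* in MC it was -0.33 and -0.35 with the replicate block in 6 and 18 libraries, -0.68 with DESeq2, -0.65 with edgeR and -0.58 with quality weights, and between -1.24 and 0.92 with a library left out. For the difference of *Spp1* between bone and condylar cartilage in the response to genotype it was 0.061 with no filter and lay between -0.79 and 0.51 with a library left out. For *Mgp* in MC it lay between -0.56 and 0.031. In condylar cartilage *Ibsp* was at -0.22 without both libraries numbered 3, -0.10 with no filter and -0.17 with quality weights, and *Dmp1* at 0.047 with DESeq2 and 0.018 with edgeR. Without both libraries numbered 3, *Mgp* was at 0.079 and *Sparc* at -0.011. With a library left out there, *Ibsp* lay between -0.60 and 0.47, *Dmp1* between -0.51 and 0.49, *Mgp* between -0.78 and 0.35, *Sparc* between -0.18 and 0.33, *Phex* between -0.37 and 1.04 and *Ifitm5* between -0.034 and 0.37. The fits of 6 bone libraries by edgeR and DESeq2, those with a bone library left out of them, and those without both condylar libraries numbered 3 were chosen after seeing the data.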
